A study of Mus musculus with 19 samples.

Results

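Mammalian apparent LTR retrotransposons (MaLR) were the elements of the deposited repeat table whose RepeatMasker class was LTR/ERVL-MaLR, which held 323160 of its 2634743 elements and 108 of its 1241 names. They were grouped by name into 14 ORR1 LTRs with 119790 copies, 15 ORR1 internal parts with 14135 copies, 9 MT LTRs with 116110 copies, 11 MT internal parts with 14507 copies, 29 MLT LTRs with 55687 copies and 30 MLT internal parts with 2931 copies. Of the 108 names, 105 passed the filter on low counts, and the 3 that did not (MLT1K-int, MLT1N2-int and MLT1O-int) had 2 to 7 copies. RNA was measured in cystic embryoid bodies (cystic EBs), the endoderm layer of the visceral yolk sac (ysE) and the mesoderm layer of the same organ. CpG methylation was measured in fetal liver, ysE and cystic EBs, and H3K4me3, a mark of active promoters, in the whole visceral yolk sac (VYS).

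The cystic EB RNA libraries were day 10 (d10_B) and day 15 (d15_B) of 1 C57Bl/6x129 ES cell clone, JN, so their spread joins time and culture. The ysE and mesoderm RNA libraries, A and B of each, came from FVB embryos at E9.25, pooled by litter. No RNA library of the repeat table came from fetal liver or from ysE of E12.5. The methylation libraries were 1 CastxFVB (CxF) and 1 FVBxCast (FxC) sample each of ysE at E12.5, fetal liver at E12.5 and cystic EBs at day 15, and the cystic EB samples were 1 ES cell clone per cross. The H3K4me3 sample was 1 pool of FVB VYS at E12.5, from more than 1 litter. Cystic EBs are fluid-filled bodies that form when ES cells differentiate in suspension. Since the RNA of cystic EBs and of tissue differed in strain as well as in tissue, the 2 cannot be told apart in the comparisons with cystic EBs.

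MaLR elements are relatives of the class III endogenous retroviruses. A complete copy has an internal part between a pair of LTRs, which carry its promoter and its polyadenylation signal, and recombination between the LTRs leaves most copies as single LTRs. The internal part does not encode the proteins needed for transposition, which are thought to come from related ERVL elements such as MERVL. MT and ORR1 copies are rodent elements, MLT copies are older and shared with other mammals, and MT LTRs are best known as promoters of oocyte transcripts.

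Some copies lay at annotated gene starts, although the repeat table was labelled intergenic, which limits such overlaps. Promoter windows from RefSeq (GRCm38.p6, which is mm10) run from 250 bases before to 50 bases after a start, and 1106 copies, 0.343% of all, overlapped 1 of the 32817 windows of 27025 genes, beside 0.334% of all repeats of the table. A start lay inside 521 copies, and 16 of these 521 also overlapped an H3K4me3 peak. The following 4 windows are shown as MLT, ORR1 and MT examples of these 16 starts, with the bases of the MaLR copy in capitals.
Tdrd7 window, MLT1A0: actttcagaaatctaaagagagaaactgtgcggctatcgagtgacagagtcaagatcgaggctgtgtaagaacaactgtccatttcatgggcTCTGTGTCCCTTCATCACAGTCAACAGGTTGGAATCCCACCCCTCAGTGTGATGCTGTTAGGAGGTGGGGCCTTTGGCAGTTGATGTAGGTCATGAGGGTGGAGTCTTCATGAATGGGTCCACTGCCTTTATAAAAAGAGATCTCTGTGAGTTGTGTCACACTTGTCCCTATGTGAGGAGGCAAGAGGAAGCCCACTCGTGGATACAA
Zfp235 window, ORR1C2-int: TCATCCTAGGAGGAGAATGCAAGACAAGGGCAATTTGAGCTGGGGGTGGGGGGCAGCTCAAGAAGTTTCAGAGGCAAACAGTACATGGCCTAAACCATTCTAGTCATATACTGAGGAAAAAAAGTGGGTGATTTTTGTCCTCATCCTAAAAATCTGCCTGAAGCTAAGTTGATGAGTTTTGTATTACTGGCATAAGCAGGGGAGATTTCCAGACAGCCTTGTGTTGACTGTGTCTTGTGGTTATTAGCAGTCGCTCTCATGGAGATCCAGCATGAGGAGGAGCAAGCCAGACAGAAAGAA
Naip2 window, ORR1E: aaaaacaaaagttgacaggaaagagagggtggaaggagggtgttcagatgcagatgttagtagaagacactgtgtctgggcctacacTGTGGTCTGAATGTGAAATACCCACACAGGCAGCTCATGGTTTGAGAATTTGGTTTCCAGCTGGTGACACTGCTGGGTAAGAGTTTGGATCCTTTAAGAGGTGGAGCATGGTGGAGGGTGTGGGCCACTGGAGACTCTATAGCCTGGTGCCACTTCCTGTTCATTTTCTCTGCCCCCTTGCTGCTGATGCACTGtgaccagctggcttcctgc
Tnfsfm13 window, MTD: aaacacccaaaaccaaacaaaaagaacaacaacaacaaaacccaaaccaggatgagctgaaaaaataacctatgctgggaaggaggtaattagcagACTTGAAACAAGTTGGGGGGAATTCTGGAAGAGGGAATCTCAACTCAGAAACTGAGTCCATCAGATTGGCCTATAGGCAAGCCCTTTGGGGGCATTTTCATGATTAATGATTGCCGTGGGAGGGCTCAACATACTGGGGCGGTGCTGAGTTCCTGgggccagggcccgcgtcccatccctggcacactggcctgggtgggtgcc

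The Tdrd7 window lies at chr4:45965085-45965384 on the + strand, and 208 of its bases were part of the MLT1A0 copy at chr4:45965177-45965539. The MACS score of the H3K4me3 peak over it, by definition −10 log10 of the peak's p-value, was 3100. Peaks at several other windows, among them those of Gm31633, Heatr6 and Xrn1, had exactly the same score. It may thus not be a value computed for this peak, which was not tested. This copy had 4 and 24 counts in cystic EBs, compared with 128 and 179 in ysE and 16 and 13 in the mesoderm. Tdrd7, a Tudor domain protein of germ cells and lens, had 13.1 and 23.4 CPM (the count scaled to the total of the library) in the same cystic EB libraries, 54.5 and 51.9 in ysE at E9.25 and 24.6 and 25.5 in mesoderm. The gene reached 185 CPM in the ysE library of E12.5 and 7.96 and 8.88 in fetal liver. Cystic EBs of another clone, A9, had 24.7 and 45.2 CPM. So the copy and the gene were highest in ysE in every library measured.

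The Zfp235 window, chr7:24132122-24132421 on the + strand, lay wholly in an ORR1C2-int copy with a peak of score 2894. The copy had no methylated read in ysE (10 reads in CxF and 2 in FxC), while fetal liver had 83.3% of 6 reads and 100% of 2 reads and cystic EBs 66.7% of 3 reads and none of 2. Zfp235, a zinc finger gene, had 7.06 and 7.89 CPM in ysE at E9.25, 7.63 and 7.11 in cystic EBs of clone JN, 6.99 and 7.41 in mesoderm, 8.73 in the ysE library of E12.5 and 4.06 and 4.93 in fetal liver. Cystic EBs of clone A9 had 4.91 and 3.79, so the JN libraries overlapped ysE and the A9 libraries overlapped liver. The A9, liver and E12.5 ysE libraries have no repeat counts and may differ in preparation, so clone and preparation cannot be told apart here. The Naip2 window is at chr13:100202073-100202372 on the − strand with 194 bases of ORR1E, and a second ORR1E copy covered the start of Naip5, another gene of the NAIP family of inflammasome sensors. The Tnfsfm13 window is at chr11:69696049-69696348 on the − strand with 155 bases of MTD. The letters TATAAA, searched on both strands, were in the MaLR part of 2 of the 16 windows, those of Tdrd7 and the uncharacterised gene Gm30969, beside 13.6% of all windows, which are longer than most of these parts.

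The 6 RNA libraries held 86063967 to 188223399 counts, of which repeats of RNA genes took 65.9% to 79.4%. All were made by the same strand-specific dUTP protocol, and the levels of repeat names are CPM scaled by TMM over all names, called scaled reads. The gene libraries of A9, ysE at E12.5 and fetal liver lie outside this set, and the paper used several preparation methods. Yolk sac endoderm markers (8 genes such as Afp and Cubn) summed to 22380.3 and 24566 CPM in ysE at E9.25 and to 2695 and 4931 in mesoderm. In cystic EBs they summed to 332 and 1013 in clone JN, which has the repeat counts, and to 994 and 2687 in clone A9. Pluripotency markers (8 genes such as Pou5f1 and Nanog) summed to 702 and 429 CPM in JN cystic EBs and to 282 and 339 in those of A9. In the tissues they summed to 0.0676 to 11.8, with Nanog under 1 in each tissue library. Primitive blood markers, globins among them, summed to 28992 and 23712 in mesoderm, to 46.3 and 87.9 in JN cystic EBs and to 8.49 to 1385 in the rest. The part of these cell types in the results below was not tested, and fewer cells of a type and less RNA per cell cannot be told apart in bulk samples.

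MaLR elements took a small share of repeat RNA. Of the counts outside RNA genes they held 3.90% ± 0.042 in cystic EBs, 4.62% ± 0.128 in ysE and 4.42% ± 0.076 in mesoderm (SD, n = 2 libraries each). The lowest ysE library lay above the highest of cystic EBs. This order depended on the total. With repeats of RNA genes included the mean shares were 1.13%, 1.04% and 1.05%, highest in cystic EBs, but the libraries overlapped. The day 10 cystic EB library (1134942 of 86063967 counts) had the highest share of all libraries and the day 15 library (1007656 of 108023000) the lowest. Without the 10 highest copies of each name mesoderm had 4.26% and ysE 4.04%. The related LTR/ERVL class, which holds MERVL, went the other way with 9.27% ± 0.897, 4.49% ± 0.253 and 6.76% ± 0.118. These shares were not tested, and an exact permutation test of 2 libraries against 2 cannot go below p = 0.333.

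Between cystic EBs and ysE the called internal parts were all higher in cystic EBs and most called LTRs lower. Of 105 names tested, 21 were higher in cystic EBs and 22 lower at an FDR of 5% (edgeR quasi-likelihood test, Benjamini-Hochberg over all 1193 names), beside 16.9% and 17.2% of all names. Of 15 ORR1 internal parts 7 rose and none fell, with a median log2 fold change of 0.54, and of 27 MLT internal parts 8 rose and none fell (median 0.86). Of 29 MLT LTRs 16 fell and 3 rose (median −0.51), of 14 ORR1 LTRs 4 fell and 2 rose (median −0.14), and of 9 MT LTRs 2 fell and none rose (median −0.28). MT internal parts were the least moved group, with 1 of 11 higher and a median of 0.03. The median over all 105 members was 0.01 and over all names 0.03, close to each other. With only the counts of an element above the lower of its 2 neighbours, MLT internal parts were 2 higher and 2 lower of 21 (median −0.04), MLT1F-int among the lower at −0.93 (FDR 0.0296), MLT LTRs 4 lower and none higher (median −0.10), and ORR1 internal parts 4 higher and none lower (median 0.29). Of the 43 calls, 13 turned direction under that count and 1 had no value. The calls of MLT1F, MLT1F2-int, ORR1A0, ORR1A0-int and ORR1A3-int, 5 of the 43, held in every fit without 1 library. Without the 10 copies of each name with the most counts, 2 ORR1 internal parts were higher and 2 lower, and 3 MLT internal parts were higher. Lower were 9 ORR1 LTRs, 8 MT LTRs and 9 MLT LTRs, and 1 ORR1 LTR and no MLT LTR was higher. This fit scaled the libraries anew without those copies of every repeat name, so a change of scale is part of these counts. Its medians were 0.08 for ORR1, 0.18 for MT and 0.25 for MLT internal parts. For ORR1, MT and MLT LTRs they were −0.43, −0.66 and −0.20. Without the day 10 or the day 15 cystic EB library 6 names were called higher, and 2 and 1 lower; without ysE A 12 were higher, and without ysE B 11 were higher and 13 lower.

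**Figure D1:**
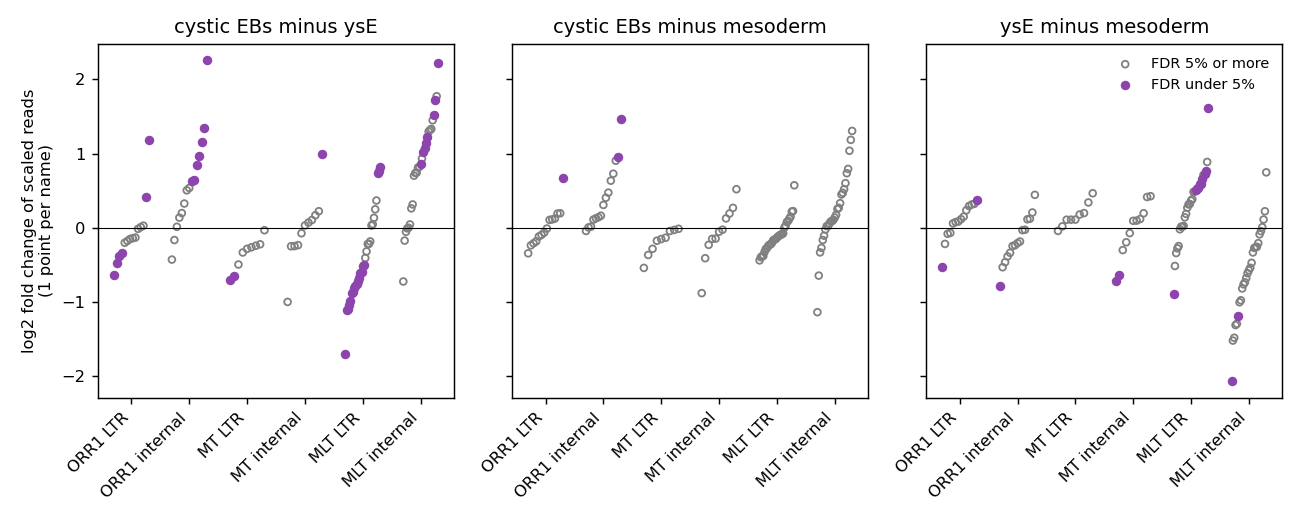
Log2 fold change of scaled reads of each MaLR name (1 point per name) in the 3 RNA comparisons, by group of names, with filled points for an FDR under 5%. In cystic EBs minus ysE the called ORR1 and MLT internal parts lie above 0 and most called MLT LTRs below it, while cystic EBs minus mesoderm has 3 called names.

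In scaled reads the ORR1 internal parts together had 1297 and 1170 in cystic EBs, compared with 652 and 719 in ysE and 742 and 800 in the mesoderm. Both cystic EB libraries were above all 4 tissue libraries. Most of this gap came from ORR1A3-int and ORR1A0-int, described below, so the sum does not stand for each name of the group. ORR1A3-int had 631 and 545 in cystic EBs, compared with 217 and 248 for ysE and 286 and 321 for mesoderm. For ORR1A0-int the levels were 162 and 159, 36.7 and 30.2, and 59.9 and 55.8 in that order. MLT LTRs had 1027 and 1036 in cystic EBs, compared with 1534 and 1457 in ysE and 1182 and 1105 in the mesoderm, with ysE above the rest. MT LTRs, the most read group, had 3469 and 3293, 4366 and 4552, and 3934 and 3785 in the same order. Per kb of annotated sequence, the MT internal parts had the highest mean level in ysE and mesoderm, at 0.186 and 0.197 scaled reads, and in cystic EBs at 0.199.

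ORR1A0-int, the internal part of the ORR1A0 elements, had the largest log2 fold change. It had 162 and 159 scaled reads in cystic EBs, compared with 36.7 and 30.2 in ysE and 59.9 and 55.8 in the mesoderm. Cystic EBs stood above all tissue libraries, by 2.26 ± 0.14 on the log2 scale against ysE (SE; edgeR FDR 0.000938) and by 1.47 ± 0.13 against mesoderm (FDR 0.00379). The ysE level was also below that of mesoderm, by −0.79 ± 0.13 (FDR 0.0169), a call lost without either cystic EB library or either mesoderm library (FDR 0.0525 to 0.0934), and −0.05 (FDR 0.839) with counts above the lower neighbour. Its LTR, ORR1A0, followed with 133 in each cystic EB library, 61.9 and 55.1 in ysE and 83.9 and 84.1 in mesoderm. The log2 fold change of ORR1A0 was 1.19 ± 0.11 against ysE (FDR 0.00245) and 0.66 ± 0.11 against mesoderm (FDR 0.0386). The call against mesoderm was lost in 4 of 6 fits without 1 library for ORR1A0 (FDR 0.146 to 0.230) and in 3 of 6 for ORR1A0-int (FDR 0.0563 to 0.0616).

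A few copies in 1 region carried most of this difference. ORR1A0-int had 373 copies, of which the 10 with the most counts held 76.1% of its counts, and 8 of these 10 lay within chr2:175386159-178038485. Each of the 8 was 1786 to 1790 bases long, close to full length. Together they had 14492 and 13844 counts in cystic EBs, compared with 1648 and 2312 in ysE and 2894 and 3291 in the mesoderm. The copy with the most counts, chr2:176534701-176536486, had 2327 and 2378 in cystic EBs, compared with 176 and 268 in ysE and 283 and 312 in the mesoderm, and lay 880 bases from the zinc finger gene Zfp967.

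Each of the other 7 copies also lay in or within 4036 bases of a gene of this zinc finger cluster, among them Zfp971, Zfp973, Gm4724 and Gm14288. These genes share near-identical sequence, so how the reads divide between them and between the copies is uncertain. Zfp973 had 1.15 and 1.27 CPM in the same cystic EB libraries and 0.0471 to 0.143 in ysE and mesoderm at E9.25. Zfp971 had 15.4 and 14.5 CPM in those cystic EBs, compared with 9.47 and 5.25 for ysE and 12.9 and 15.1 for the mesoderm, so cystic EBs and mesoderm overlapped. The ORR1A0-int copy 837 bases from it had 938 and 840 counts in cystic EBs, compared with 423 and 572 for ysE and 763 and 904 for the mesoderm, the same overlap. Cystic EBs of the other clone, A9, had no count for Zfp973 at day 10 or 15. The ysE library of E12.5 had none either, and fetal liver had 0.0784 and 0 CPM. These libraries may differ in preparation from those with repeat counts, so clone and preparation cannot be told apart here. Of the 10 ORR1A0 LTR copies with the most counts, 8 were in the same chromosome 2 region, with 3489 and 3634 counts in cystic EBs, compared with 493 and 623 in ysE and 758 and 722 in the mesoderm.

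Without the 10 copies of each name that had the most counts, ORR1A0-int differed by 0.12 between cystic EBs and ysE (FDR 0.652) and by −0.26 between cystic EBs and mesoderm (FDR 0.534). ORR1A0 kept a difference of 0.47 against ysE (FDR 0.00632) and had 0.22 against mesoderm (FDR 0.282). This fit scaled the libraries anew after the 10 highest copies of every repeat name were left out. Its values thus mix the loss of copies with a change of scale, and do not show that the remaining copies were equal. Of ORR1A0-int copies with at least 50 counts in all, 62 of 81 were higher in cystic EBs than in ysE, 76.5% beside 56.9% of all repeats outside RNA genes. Against mesoderm 39 of 81 were higher, 48.1% beside 49.6%.

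ORR1A3-int counts were spread over many copies of 1 short form. It had 631 and 545 scaled reads in cystic EBs, compared with 217 and 248 in ysE and 286 and 321 in the mesoderm, the highest level per kb of any member in cystic EBs. Both cystic EB libraries lay above all tissue libraries, by 1.34 ± 0.14 on the log2 scale against ysE (FDR 0.00255) and 0.95 ± 0.13 against mesoderm (FDR 0.0249). Of its 449 copies with at least 50 counts, 400 were higher in cystic EBs than in ysE, 89.1% beside 56.9% of all repeats outside RNA genes. Its copy with the most counts held 1.12% of them. The 10 copies with the most counts, all 87 bases long, had nearly the same counts, 757 to 784 in the day 10 cystic EB library and 190 to 197 in ysE A, and how reads that match several copies were counted is not given in the sources used here. Whether these copies are separate measurements was not tested.

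Of its 1838 copies, 432 were exactly 87 bases long, and 424 of those lay within 10 bases of MERVL sequence. MERVL is an ERVL retrovirus that is no MaLR element and is known for its expression at the 2-cell stage. The copies of any length within 10 bases of MERVL numbered 794 and held 84.0% of ORR1A3-int counts, with 556 and 496 scaled reads in cystic EBs, compared with 166 and 181 in ysE and 233 and 266 in the mesoderm. MERVL-int itself had 21769 and 17281 in cystic EBs, compared with 7239 and 6977 in ysE and 12120.3 and 11569 in the mesoderm. Its log2 fold change was 1.46 ± 0.14 against ysE (edgeR FDR 0.00248) and 0.72 ± 0.14 against mesoderm (FDR 0.0613).

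The ORR1A3-int copies that were not within 10 bases of an LTR element of another class numbered 589. They had 40.4 and 25.2 scaled reads in cystic EBs, compared with 29.3 and 41.8 in ysE and 28.1 and 33.7 in the mesoderm, so the libraries overlapped. With such neighbouring copies left out of every MaLR name, a choice made after seeing the data, the log2 fold change of ORR1A3-int was −0.12 against ysE (FDR 0.764) and 0.08 against mesoderm (FDR 0.907). Under this choice 2 of 15 ORR1 internal parts were called higher in cystic EBs than in ysE and none lower, in place of 7, while ORR1A0-int kept a log2 fold change of 2.31 (FDR 0.000943). Over all MaLR names, 7.83% of copies and 12.2% of counts lay within 10 bases of an LTR of another class.

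**Figure D2:**
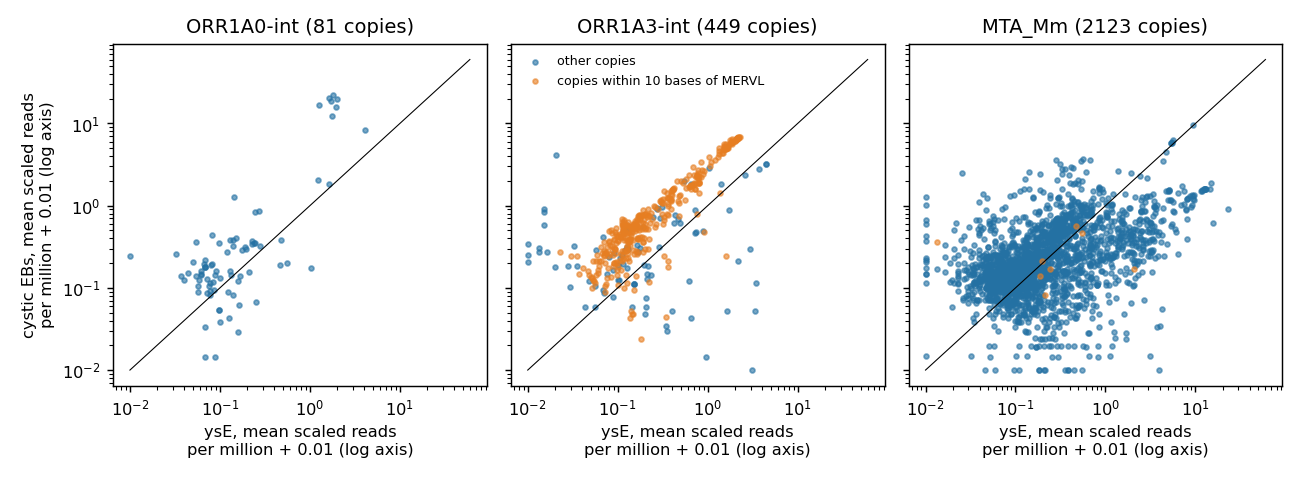
Mean scaled reads (CPM plus 0.01, log axes) of single copies with at least 50 counts in ysE (x) and cystic EBs (y) for ORR1A0-int, ORR1A3-int and MTA_Mm; the line marks equal levels and orange points are copies within 10 bases of MERVL. A handful of ORR1A0-int copies sit far above the line, the orange ORR1A3-int copies form a band above it, and MTA_Mm has a tail of copies below it.

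Other ORR1 internal parts were higher in cystic EBs at lower levels. ORR1D2-int had 44.5 and 45.05 scaled reads in cystic EBs against 25.03 and 20.9 in ysE, a log2 fold change of 0.96 ± 0.16 (FDR 0.00918, and 0.0670 and 0.0593 without the day 10 or the day 15 cystic EB library). ORR1F-int had 13.5 and 12.2 against 5.85 and 5.72, with 1.15 ± 0.18 (FDR 0.00808), but 1 copy held 38.4% of its counts, the change was −0.05 without its 10 highest copies, and the FDR was 0.0672 without the day 10 cystic EB library. Copies within 10 bases of MERVL held 44.9% of the ORR1F-int counts and 16.9% of the ORR1D2-int counts. Among ORR1 LTRs, ORR1A2 was lower in cystic EBs, at 277 and 294 against 432 and 456 in ysE (log2 fold change −0.64 ± 0.15, FDR 0.024). ORR1B1, ORR1C1 and ORR1F were also lower, with log2 fold changes of −0.47, −0.33 and −0.38. With counts above the lower neighbour these 3 became −0.017 (ORR1B1), 0.23 (ORR1C1, FDR 0.496) and −0.015 (ORR1F). The cystic EB and ysE libraries did not overlap for any of these names. The calls of ORR1A2, ORR1B1, ORR1C1 and ORR1F were lost without 4, 5, 6 and 4 of the 6 libraries, each left out in turn, with FDRs up to 0.140, 0.220, 0.263 and 0.189.

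MTA_Mm, an MT LTR, was lower in cystic EBs. It had 974 and 818 scaled reads there, 1482 and 1442 in ysE and 1178 and 1130.4 in mesoderm, with mesoderm between the other groups. The log2 fold change between cystic EBs and ysE was −0.71 ± 0.12 (FDR 0.00993), and between cystic EBs and mesoderm −0.37 ± 0.12 (FDR 0.185). Without the day 15 cystic EB library it was −0.54 against ysE (FDR 0.0683). Copies of 380 to 399 bases, close to a complete LTR, numbered 9126 of 11419 and had 789.9 and 642 scaled reads in cystic EBs against 1341 and 1300.5 in ysE. The 1849 shorter copies had 143 and 136 against 127 and 127. The 444 copies of 400 bases or more had 40.5 and 40.2 against 15.2 and 15.04, so that ysE was the higher tissue in the middle length class and cystic EBs in the other 2.

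At single copies MTA_Mm differed with the tissue compared. Of its 2123 copies with at least 50 counts, 1193 (56.2%) were higher in cystic EBs than in ysE, as were 56.9% of all repeats. Against mesoderm 610 (28.7%) were higher in cystic EBs, beside 49.6% of all repeats. The 20 copies highest in ysE held 16.7% of MTA_Mm counts in ysE and 4.02% in cystic EBs, and the 20 highest in cystic EBs held 9.37% there and 3.53% in ysE, each set being chosen for its level in the tissue named. Of the 10 copies with the most counts over all libraries, 4 lay on chromosome 13, and in each of these 4 the counts of cystic EBs and ysE overlapped. In the other 6 both ysE libraries had more counts than both cystic EB libraries. The LTR at chr4:80904121-80904514, 6172 bases from Lurap1l, had 103 and 85 counts in cystic EBs, compared with 2205 and 3494 in ysE and 270 and 462 in the mesoderm. The MTA_Mm-int part that adjoins it, chr4:80904515-80905590, had 84 and 55, 2186 and 3305, and 196 and 425. A further LTR, chr8:3861211-3861583, 6925 bases from Cd209e, had 63 and 66, 1328 and 2701, and 194 and 268. In each of these 3 places the ysE libraries were the highest and the cystic EB libraries the lowest.

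MTA_Mm-int, the internal part of the same elements, did not follow its LTR. It had 1094 and 857 scaled reads in cystic EBs, compared with 891 and 844 in ysE and 1018 and 966 in the mesoderm (log2 fold change against ysE 0.17 ± 0.14, FDR 0.372), and cystic EBs overlapped both other groups. MTB was lower in cystic EBs, at 116 and 106 against 169.8 and 179 in ysE (−0.65 ± 0.10, FDR 0.00849), a call lost without either cystic EB library. The 20 copies highest in ysE held 44.8% of MTB counts there and 4.83% in cystic EBs. The 20 highest in cystic EBs held 15.2% there and 14.4% in ysE. Each set was chosen for its level in the tissue named. The ysE libraries A and B had 0 and 2925 counts in the MTB copy at chr11:97074839-97075237, and 1544 and 29 at chr17:31752245-31752640. Of 310 MTB copies with at least 50 counts, 161 (51.9%) were higher in cystic EBs than in ysE, beside 56.9% of all repeats outside RNA genes. MT-int was higher, at 40.8 and 35.0 against 20.2 and 17.9 (0.99 ± 0.14, FDR 0.00682), with an FDR of 0.0622 without the day 10 cystic EB library. With counts above the lower neighbour MT-int had 0.39 (edgeR FDR 0.195). MTC (517 and 543 against 634 and 656, FDR 0.07) and MTD, the MT name with the most copies (849.6 and 816 against 919 and 1024, FDR 0.142), did not pass the test.

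**Figure D3:**
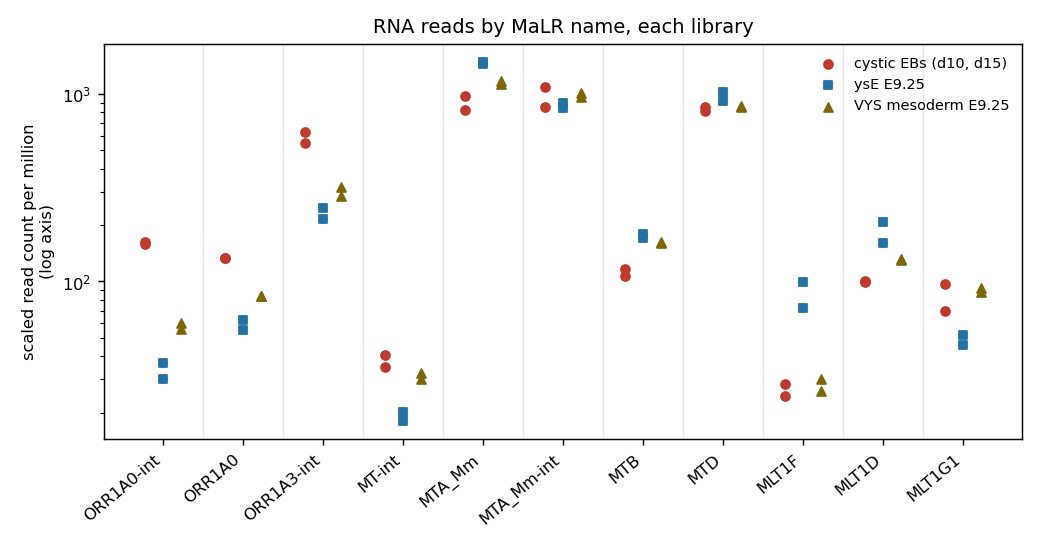
Scaled reads (CPM, log axis) of 11 MaLR names in each library, with circles for cystic EBs, squares for ysE at E9.25 and triangles for VYS mesoderm at E9.25. ORR1A0-int reads 159 to 162 in cystic EBs and 30.2 to 59.9 in tissue, while MTA_Mm is lowest in cystic EBs and highest in ysE.

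The MLT LTRs that fell were mostly read at low level. MLT1F had the largest drop, with 24.4 and 28.6 scaled reads in cystic EBs, compared with 71.8 and 99.6 in ysE and 26.0 and 30.2 in the mesoderm (log2 fold change against ysE −1.70 ± 0.20, FDR 0.00377), but its difference was 0.10 (FDR 0.741) with counts above the lower neighbour. Its 2 pieces at chr4:135990835-135990993 and chr4:135991020-135991255, near Pithd1, had 40 to 44 counts in cystic EBs, 2134 and 3377 in ysE and none in mesoderm. MLT1J had 45.6 and 51.3 in cystic EBs and 102 and 104 in ysE (−1.09 ± 0.19, FDR 0.0109), MLT1H2 had −1.10 ± 0.19 (FDR 0.01) and MLT1D, with 5687 copies, −0.88 ± 0.15 (FDR 0.00944). Without the day 10 or the day 15 cystic EB library the FDR was 0.0841 and 0.0649 for MLT1J, 0.0816 and 0.0637 for MLT1H2 and 0.0732 and 0.0736 for MLT1D. MLT1G1 went against its group, with 69.7 and 96.6 in cystic EBs and 88.2 and 92.1 in mesoderm against 51.9 and 45.7 in ysE (0.77 ± 0.18, FDR 0.024), with an FDR of 0.0854 without the day 15 cystic EB library and of 0.0534 and 0.0792 without ysE A or B. Of MLT1G1 counts 28.1% came from 1 copy, chr8:20148092-20148312, in a pseudogene.

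How the counts were deposited bears on all these values. Of the member counts, 15.3% were in elements whose counts equalled those of a neighbouring element at least 200 bases away, within 2 counts or 5%, beside 6.42% over all repeats outside RNA genes. The counts that exceeded the lower of the 2 neighbouring elements of the table made up 29.4% of member counts, beside 66.6% over all such repeats and 83.5% for LTR/ERVL. Counting only this excess, 7 of 99 members tested were higher in cystic EBs than in ysE and 9 lower, beside 9.5% and 12.8% of all names. ORR1A0-int (log2 fold change 1.89, FDR 0.00122) and MTA_Mm (−1.77, FDR 0.00209) kept their calls. MLT1J (−1.08, FDR 0.00759) and MLT1D (−1.11, FDR 0.00527) also did, but MLT1F had 0.10 (FDR 0.741) and MTB −0.23 (FDR 0.471). Copies inside the span of a RefSeq gene held 20.6% to 26.7% of member counts.

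Against mesoderm, cystic EBs were higher for ORR1A0-int, ORR1A0 and ORR1A3-int, and no name was lower. These 3 of 105 members stand beside 1.51% of all names in each direction, and 19 members had an unadjusted p under 0.05. DESeq2 called 8 higher and 2 lower. Counting only reads above the lower neighbour, 2 of 99 members were higher and none lower, beside 3.38% and 3.47% of all names. Leaving out single libraries ended all 3 calls. The FDR of ORR1A0-int was 0.0563 without the day 10 cystic EB library and 0.0581 and 0.0616 without mesoderm A or B. ORR1A0 and ORR1A3-int lost their calls without either cystic EB library or either mesoderm library, with FDRs of 0.146 to 0.230 and of 0.0508 to 0.186. Libraries did not overlap for 34 members higher and 30 lower, beside 27.3% and 26.5% of all names, shares of 32.4% and 28.6% of the members. The same count against ysE was 37 and 39 members, 35.2% and 37.1%, beside 37.5% and 33.9% of all names.

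Between the layers of the yolk sac, 9 of 105 members were higher in ysE than in mesoderm and 7 lower, beside 10.6% and 9.3% of all names. The 9 were 8 MLT LTRs and ORR1F. No call of these 16 held in every fit without 1 library. Among the 9, MLT1F had the largest difference, 1.61 ± 0.20 on the log2 scale (FDR 0.0108), but −0.090 (FDR 0.773) with counts above the lower neighbour. By the same count ORR1F had −0.10. With all counts ORR1F had 338 and 339 scaled reads in ysE against 268 and 255 (0.37 ± 0.09, FDR 0.0452), a call that none of the 6 fits without 1 library kept (FDR 0.0687 to 0.146). The 7 lower names were ORR1A0-int, ORR1A0, MT-int, MTB_Mm-int, MLT1G1, MLT1G1-int and MLT1D-int. MLT1G1-int had the largest difference of the 16, −2.07 ± 0.37 (FDR 0.0207), at 0.105 and 0.112 scaled reads in ysE against 0.357 and 0.559 in mesoderm. MT-int had 20.2 and 17.9 in ysE against 32.7 and 30.2 in mesoderm (−0.72 ± 0.14, FDR 0.0245), but −0.14 (FDR 0.641) with counts above the lower neighbour. Counting only reads above the lower neighbour, 7 of 99 members were higher and 1 lower, beside 8.95% and 5.3% of all names. With only the libraries of the 2 layers in the fit, 1 member was called higher and 2 lower, and leaving out any 1 library, those of cystic EBs included, left 0 to 5 called higher and 0 to 3 lower. MLT1F had an FDR of 0.0711 without mesoderm A, and MT-int lost its call without any single library other than ysE A. Non-overlapping libraries were found for 35 members in each direction, 33.3%, beside 28.3% higher and 34.4% lower of all names.

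Single copies were tested in the same way over 238744 elements, 21021 of them members. In cystic EBs 571 members were higher and 1600 lower than in ysE, 2.72% and 7.61%, beside 3.38% and 8.68% of all elements. Between cystic EBs and mesoderm 0 members passed the edgeR test (3803 had an unadjusted p under 0.05), beside 0% of all elements, but with only elements of a mean of at least 20 counts tested, 101 of 9009 members were higher and 78 lower, 1.12% and 0.866%, beside 1.09% and 1.51% of all elements. For ysE minus mesoderm this filter gave 529 higher and 158 lower, 5.87% and 1.75%, beside 6.23% and 3.02%. With the filter used for the other counts, in ysE 135 members were higher and 51 lower than in mesoderm, 0.642% and 0.243%, beside 0.978% and 0.286%. An ORR1A3 copy in the lncRNA gene Gm36357, chr5:91882503-91882867, had no counts in cystic EBs, compared with 272 and 512 in ysE and 126 and 181 in the mesoderm (edgeR FDR 0.0146 against cystic EBs). An MTB copy in the same gene, chr5:91884086-91884478, had the same counts in ysE and mesoderm and 2 and 0 in cystic EBs. Whether both hold the same reads was not tested. An MTD copy in Fmo4, chr1:162793440-162793532, had no counts in cystic EBs, compared with 234 and 307 in ysE and 8 and 40 in the mesoderm (FDR 0.0262). In the opposite direction an ORR1B1-int copy, chr13:66665309-66667352, had 142 and 73 counts in cystic EBs, none in ysE and 8 and 2 in mesoderm (FDR 0.0318).

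The most read copies of several MLT names lay beside other transcripts. The MLT1A0 copy at chr3:96332846-96333015, 34 bases from a tRNA gene and under an H3K4me3 peak of score 1344, had 462 and 511 counts in cystic EBs, compared with 1617 and 4131 in ysE and 2560 and 2545 in the mesoderm. It held 10.1% of all MLT1A0 counts. The MLT1J copy at chr12:69362677-69362800, 1196 bases from Rn7s2, a 7SL RNA gene, held 29.7% of the MLT1J counts, with 2073 and 2342, 1856 and 3964, and 2048 and 2118. The MLT1A0 copy had fewer counts in both cystic EB libraries than in any tissue library, while the MLT1J copy had 16.4 to 31.9 scaled reads (CPM in the fit of single elements), lowest in a cystic EB library and highest in ysE B, the most deeply read library.

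Methylation of MaLR CpGs was lowest in ysE and highest in cystic EBs. The libraries had 6695942 to 11554658 CpG reads, and 124328 to 214263 reads per library fell in members on the 16 chromosomes with calls in every library. The share of methylated reads was 60.5% and 51.0% in ysE, compared with 73.0% and 74.9% for fetal liver and 85.5% and 79.5% for cystic EBs (CxF and FxC), or 55.8% ± 6.72, 74.0% ± 1.31 and 82.5% ± 4.25 (SD, n = 2). Chromosome 4 of CxF ysE, 3 of FxC ysE, 6 of CxF liver and 12 of FxC cystic EBs stood apart from the other chromosomes of their library, and without these chromosomes the means were 57.6%, 74.1% and 82.3%. The tissues did not overlap, and FxC was the lower cross in ysE and cystic EBs but not in liver. All repeats outside RNA genes had 60.01%, 76.6% and 82.5%, and LTR/ERVK elements 71.9%, 83.7% and 88.2%.

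Members were less methylated than the sequence around them. CpGs within 1 kb of a member and outside every repeat had 60.8% for ysE, 78.7% for fetal liver and 87.4% for cystic EBs. Members minus flanks came to −5.002 ± 0.661, −4.71 ± 0.203 and −4.87 ± 1.73 percentage points (SD, n = 2). For MT LTRs the difference was −6.33, −6.16 and −7.07 points and for ORR1 LTRs −5.56, −6.05 and −6.45 points in the same tissues. MLT LTRs differed from their flanks by −0.52, −0.83 and 1.01 points, a smaller gap than that of the MT and ORR1 LTRs in each library. These differences were not tested.

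**Figure D4:**
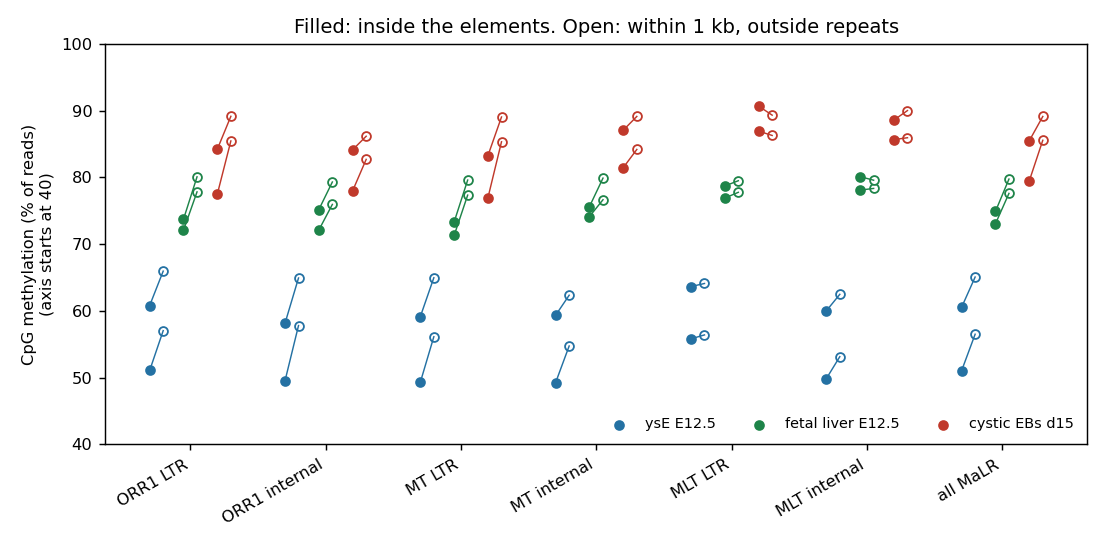
Percent of methylated CpG reads in each library inside the members of each group (filled points) and within 1 kb outside repeats (open points), joined by lines, in ysE and fetal liver at E12.5 and cystic EBs at day 15, on an axis that starts at 40%. The MT and ORR1 LTRs lie below their flanks in every library and the MLT LTRs close to theirs.

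By name, 80 members had at least 100 reads in every library. Of these, 78 were lower in ysE than in fetal liver and none higher (limma on log2 odds, FDR 5%), beside 91.5% of all names, and 79 were higher in cystic EBs than in ysE, beside 97.3%. Against liver, 38 were higher in cystic EBs and none lower, 47.5% beside 32% of all names. MLT LTRs made up 25 of the 38, out of 28 tested. The 78 were 23 without the FxC ysE library and 12 without the FxC liver library. The 38 were 0 and 4 without the CxF or the FxC liver library and 6 without the CxF cystic EB library. Libraries of all 80 members were apart in the first 2 comparisons, beside 98.5% and 98.8% of all names, and of 63 (78.8%) in the third, all higher in cystic EBs, beside 74.9% of all names higher and 0.599% lower.

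MTA_Mm and MTB had the lowest mean methylation of the 80 names in each tissue. MTA_Mm had 40.4% and 40.02% in ysE, compared with 50.2% and 51.0% for fetal liver and 64.9% and 60.2% for cystic EBs. MTB had 41.1% and 32.1%, 51.2% and 53.3%, and 65.5% and 58.5% in the same order. ORR1A0 had 55.0% and 49.5%, 62.6% and 60.6%, and 70.3% and 58.4%, and was the only member that passed none of the 3 tests (FDR 0.167 for ysE against liver, 0.0651 for cystic EBs against ysE and 0.69 for cystic EBs against liver). MTA_Mm passed only the test of cystic EBs against ysE (22.3 points, FDR 0.00105). Its other FDRs were 0.128 for ysE against liver and 0.148 for cystic EBs against liver.

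ORR1A0-int, the name with the largest RNA difference, was more methylated in cystic EBs, at 83.4% and 81.8%, than in fetal liver, at 69.6% and 70.1%, and in ysE, at 53.8% and 50.4%. The 8 chromosome 2 copies with most of its RNA counts gave only 0 to 21 CpG reads per library, out of 112 to 411 for the name, so the methylation by name rests mostly on other copies. Liver was not among the libraries with repeat RNA counts. Cystic EBs minus liver was 12.7 points (limma FDR 0.034), a call lost without 3 of the 6 libraries (FDR 0.183 to 0.323). Among the more methylated names, MLT1F had 68.1% in both ysE libraries, the highest ysE mean of any name tested, and 90.7% and 88.6% in cystic EBs. MTE2a-int rose most from ysE to cystic EBs, from 56.6% and 42.3% to 93.3% and 91.1% (42.8 points, FDR 9.59e-17), and also most from liver (17.7 points, FDR 8.75e-05; FDR 0.154 without the CxF liver library). MLT1E1 had the largest gap between ysE and liver, 53.4% and 49.7% against 80% and 84.9% (−30.9 points, FDR 1e-05). The FDRs of limma rest in part on a spread shared over all names tested, and not only on the libraries of each group.

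Names with few called CpGs were less methylated. Over 80 names, mean methylation and called CpGs per kb of element had a Pearson correlation of 0.836 in ysE, 0.809 in fetal liver and 0.857 in cystic EBs (Spearman 0.835, 0.694 and 0.785). The density rests on CpGs with a read, so it also follows mapping and coverage, and names share libraries and base composition, so no p is given. MTA_Mm had 0.753 called CpGs per kb and MLT1F 5.89. Pooled over single copies, methylation went from 47.0% in ysE, compared with 68.8% for liver and 78.6% for cystic EBs below 5 called CpGs per kb to 66.6%, 80.1% and 86.7% at 20 or more. Over these classes of single copies, ysE minus liver went from −21.8 points through −19.4 and −15.5 to −13.4 points with rising density, whereas by name the difference and the density had a Pearson correlation of −0.07.

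**Figure D5:**
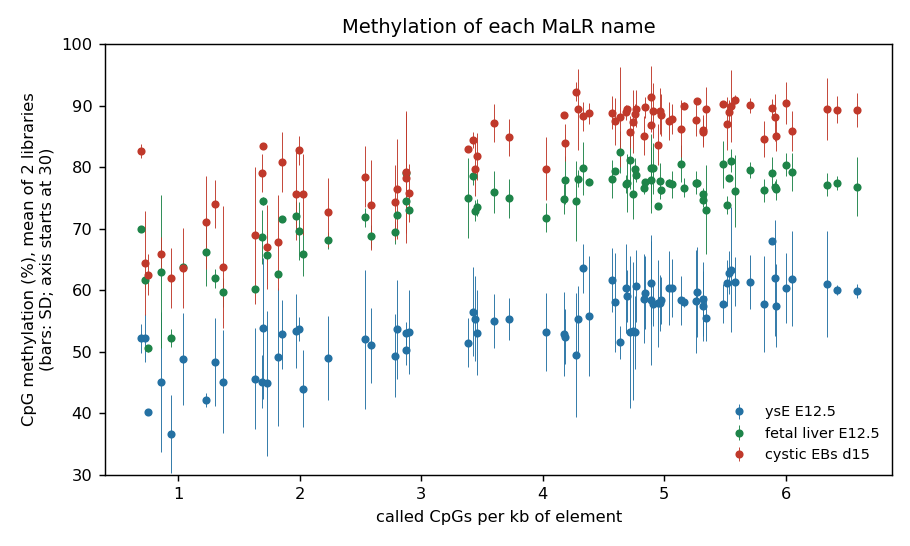
Mean methylation of each of 80 MaLR names (bars: SD of 2 libraries) against called CpGs per kb of element in ysE and fetal liver at E12.5 and cystic EBs at day 15; the y axis starts at 30%. Names rise to the right in each tissue, and ysE lies below liver and liver mostly below cystic EBs at the same density.

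Single copies had few reads each. Among copies with at least 5 reads, 6388 to 14366 per library, the median copy had 71.4% and 60% in ysE, compared with 83.3% and 85.7% for liver and 100% for both cystic EB libraries. Copies at or below 20% made up 16.7% and 24.8% in ysE, compared with 7.47% and 6.56% for liver and 3.42% and 6.77% for cystic EBs. For all repeats outside RNA genes these shares were near, at 17.2% and 22.3%, 6.76% and 5.83%, and 3.17% and 5.37% in the same order. Their medians were 66.7% and 58.3%, 80% and 83.3%, and 91.7% and 85.7%. With a median of 6 or 7 reads a copy, the values of single copies have wide counting error.

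H3K4me3 peaks of the VYS were rare over members. A peak overlapped 515 members, 0.159% (95% exact Clopper-Pearson interval 0.146% to 0.174%, counting error only, 1 sample), beside 0.544% of the other repeats outside RNA genes. MT LTRs had 0.204%, MLT LTRs 0.174% and ORR1 LTRs 0.123%. The 432 members with a peak on the chromosomes compared had 38.2% ± 2.59 methylation in ysE, 64.7% ± 0.549 in fetal liver and 70.1% ± 7.98 in cystic EBs, below the members without a peak at 55.8% ± 6.74, 74.0% ± 1.32 and 82.5% ± 4.23 (SD, n = 2). The libraries with and without a peak did not overlap in any tissue, and the former rest on 311 to 588 reads per library. The VYS holds endoderm and mesoderm, so the peaks cannot be assigned to a layer.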

How the data were processed

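The authors aligned RNA, bisulfite and ChIP reads to mm10 with GSNAP. The deposited repeat counts are raw counts per RepeatMasker element of a table labelled intergenic, though 15.9% of members lay in a RefSeq gene span; how multiply mapped reads were counted is not given in the sources used here, so near-identical copies are uncertain. The deposited bisulfite files give, per CpG, the percent of methylated reads called by the authors with BisSNP and the reads behind it. The deposited peaks carry the score of MACS 1.4.2, called by the authors on 1 sample against input.

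Counts were summed by name and tested over all names with edgeR 4.0.16 (quasi-likelihood, TMM, filterByExpr, 3 groups in 1 fit, Benjamini-Hochberg, R 4.3.3), and single elements in the same way. Methylated reads were summed by name over chromosomes with at least 1000 calls in every library and tested with limma 3.58.1 on log2((methylated + 1)/(unmethylated + 1)). The scripts were tested on simulated data. The libraries of a group are 2 samples, and where nothing says that they were separate cultures or litters, p-values measure only the spread between these samples. Alternatives were DESeq2 1.42.0, other filters and left-out copies or libraries. The ysE and mesoderm libraries share letters only, and the deviations of same-letter libraries had a correlation of 0.0698. The names of highest level per kb, largest change and extreme methylation were chosen by rule and the single copies and further names after their values were seen; members and lists were chosen with earlier results of these data known. Gene exon counts, RPKM values and the RNA counts of fetal liver other than for named genes were not used here.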

Additional observations from a re-analysis of the deposited data

How the results depend on the processing

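Against ysE, the 21 names higher in cystic EBs became 13 without the highest copy of each name, 8 without the 10 highest, 7 with counts above the lower neighbour and 13 without copies beside an LTR of another class. The 22 lower became 14 without elements that had the same counts as a neighbour and 9 with counts above the lower neighbour. Against mesoderm, DESeq2 called 8 higher and 2 lower, and 1 was lower without RNA genes, without the highest copy or the 10 highest, and without copies beside another LTR. For ysE minus mesoderm, DESeq2 called 21 higher and 12 lower; 15 were higher without the highest copy; 23 were higher and 2 lower without the 10 highest; 1 was lower above the lower neighbour; and with only these groups 1 was higher and 2 were lower. The settings on neighbouring counts and copies were chosen after seeing the data. Each fit without copies or counts scaled the libraries anew, so a change of scale is part of its values.

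With the library letter as a replicate block, 1 was higher and 1 lower in ysE. With the cross as a replicate block for methylation, 78, 79 and 41 names were called, so this pairing moved no count by over 1.5 times.

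Of log2 fold changes that changed sign between cystic EBs and ysE without the 10 highest copies, MLT1D-int had −0.33, MLT1J2 0.069, ORR1A1 −0.014 and ORR1F-int −0.046. With counts above the lower neighbour MLT1D-int had −0.30, MLT1E1 −0.17, MLT1F 0.10, MLT1F-int −0.93, MLT1J2 0.37, MLT1O −0.057 and ORR1C1 0.23. By the same count MLT1M had 1.56, MLT1F1 0.68, MLT1F2 0.11, MLT1G-int −0.56, MLT1J1-int −0.044 and ORR1D1-int −0.31. Without copies beside another LTR ORR1A3-int had −0.12. Against mesoderm ORR1A0-int had −0.26 without its 10 highest copies. For ysE minus mesoderm, the values without the 10 highest copies were −0.14 for MLT1J2, 0.38 for MTB_Mm and 0.57 for ORR1A4, and above the lower neighbour −0.090 for MLT1F, −0.48 for MLT1J2 and −0.10 for ORR1F. The cause was not tested.

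Methylation calls for ysE below liver were 43 with at least 500 reads a name and 49 with at least 3 reads a CpG, and for cystic EBs above ysE 44 with at least 500 reads; the first and last of these tested fewer names. Cystic EBs above liver gave 7 with at least 20 reads, 8 with at least 3 reads a CpG and 23 without the 4 library chromosomes that stood apart, a choice made after seeing the data. The median over elements was 65.7% for ysE, 84.5% for liver and 100% for cystic EBs, and at least 3 reads a CpG gave 70.6% for liver and 78.2% for cystic EBs. With a mean of at least 20 counts, cystic EBs minus mesoderm had 101 single elements higher and 78 lower, and ysE minus mesoderm 529 and 158. Over all repeats the mean share of MaLR counts was 1.13%, 1.04% and 1.05% for cystic EBs, ysE and mesoderm. This turns the order of the means of cystic EBs and ysE, but their libraries overlapped and the day 15 cystic EB library was the lowest of all. Without the 10 highest copies the share was 4.04% in ysE and 4.26% in mesoderm. Peaks covered 0.0248% of members by their centre and 0.0668% with the upper 50% by score.

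Leaving out 1 library gave 6 to 18 names higher and 1 to 20 lower for cystic EBs minus ysE, 0 to 3 and 0 for cystic EBs minus mesoderm, and 0 to 5 and 0 to 3 for ysE minus mesoderm. Methylation calls were 12 to 78 for ysE below liver, 74 to 80 for cystic EBs above ysE and 0 to 52 for cystic EBs above liver. Levels were 51.0% to 60.5% for ysE, 73.0% to 74.9% for liver and 79.5% to 85.5% for cystic EBs, and shares of counts 3.87% to 3.93% in cystic EBs, 4.53% to 4.71% in ysE and 4.36% to 4.47% in mesoderm.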
